A study of Homo sapiens with 8 samples.

Results

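Of the 42272 m6A peaks listed for U251 cells, 13672 were placed in exons, and 2390 of these lay in a transcript whose annotation read exon 1 of 1. Peaks under names of long intergenic RNAs (LINC), clone names and numbered antisense names (1065 rows) were left out, which left 1325 peaks in single-exon transcripts under 954 gene names. The annotation chose them, not a measured value. Rows in which the single-exon transcript belonged to another gene than the one the row was assigned to were kept and marked, and there were 569 of them.

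U251, an established line of human glioblastoma cells, was the model. MeRIP-seq was performed on U251 cells transfected with si-NC, the control siRNA, or si-HNRNPC, which targets an m6A-binding protein, and the labels name 8 libraries in 4 groups of 2 (si-NC input, si-HNRNPC input, si-NC at 48 h and si-HNRNPC at 48 h). The labels do not say whether the 48 h libraries are immunoprecipitates or whether the pairs came from separate cultures. The peak list is named only as an siRNA immunoprecipitate against an siRNA input, without saying which siRNA, and gives no value per library and no depth, so no replicate error could be given and si-HNRNPC was not compared with si-NC.

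N6-methyladenosine (m6A) is placed on mRNA and long noncoding RNA by a methyltransferase complex that prefers adenosines within GGAC-like sequence, and methylated sites cluster near stop codons and in long internal exons. Exon junctions with their bound protein complexes keep the methyltransferase from nearby RNA, so that transcripts without introns lack this restraint. Single-exon transcripts include intronless protein-coding genes, processed pseudogenes, which are copies of spliced mRNAs put back into the genome, several long noncoding RNAs, small RNA genes and the genes of the mitochondrial genome.

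Of 9 peaks listed under miRNA hairpin names, 4 held the whole hairpin in their exon blocks, 1 held a part and 4 held none of it. The mature sequences of the covered hairpins are shown because 2 of these peaks had the same ends as the hairpin itself. Capitals mark the seed (bases 2 to 8), and the sequences are from RefSeq (GRCh38.p14).
hsa-miR-1184: cCUGCAGCgacuugauggcuucc
hsa-miR-4453: gAGCUUGGucuguagcgguu
hsa-miR-662: uCCCACGUuguggcccagcag
MIR1184-1 and MIR1184-2 give the same mature miRNA and thus share 1 seed, whereas MIR4453 and MIR662 each have their own. The MIR1184-1 peak (chrX:154887360-154887458, 99 bases, hairpin on the minus strand) had a fold enrichment of 60.6, the highest of all 1325 peaks. The annotated gene F8 and the intronless gene F8A1 lie at the same place. The MIR1184-2 peak, where F8A2 lies, spanned 1116 bases with a fold of 17.4. Reads from these near-identical copies could be split by alignment, so the copy of origin is uncertain.

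The MIR4453 and MIR662 peaks both had a fold of 6.54 with a log10 p of only -1.31, a pair of values found in 1502 rows of the list. The MIR662 peak was joined from 7 blocks. The MIR4453 peak (chr4:152536428-152536516, plus strand) lay wholly inside a 511-base peak of its host transcript MIR4453HG, with a fold of 17.4. That peak covered the first bases of MIR4453HG. A second long noncoding RNA, KDM7A-DT, also had a peak over its RefSeq start, with a fold of 13.1, and both carried GGAC, the core of the m6A motif, near that start. For MIR4453HG the RefSeq start is the listed one, and for KDM7A-DT it lies 77 bases from the start in the peak list. The windows show it in capitals, on the plus strand of GRCh38.p14 (RefSeq).
MIR4453HG, chr4:152536284-152536313: ggtgggtgcgcctcgggccgcgGGACtcgc
KDM7A-DT, chr7:140177261-140177290: gaggccccgtgaGGACacgcgcggtggtgg
Among the 9 single-exon transcripts whose peak covered the 50 bases after the RefSeq start of the gene, 2 held GGAC there on the transcript strand (22.2%), against 18.9% of 35116 RefSeq starts. In 6 of the 9 the RefSeq start equalled the listed start, and 1 of these 6 held GGAC. GGACT, which contains GGAC, was found in 1 of the 9 and in 4.90% of the starts. On the opposite strand the shares for GGAC were 22.2% and 17.6%. A match of letters is not a methylated site.

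Fold enrichment, the ratio of immunoprecipitate to input in each peak, had a median of 6.54 in the single-exon peaks (95% interval 6.54 to 7.15, quartiles 4.14 and 9.80). It was 5.45 over all listed peaks and 4.58 in the 8361 exon peaks of transcripts with more exons from which the same names were left out. The single-exon peaks thus had the higher median, yet fewer of them passed a strict threshold. At a false discovery rate (FDR) under 0.001, 505 of them passed (38.1%, Wilson interval 35.5 to 40.8), against 62.0% of all peaks, 49.9% of the 11282 exon peaks whose transcript had more exons and 52.2% of these with the same names left out. At an FDR under 0.05 the 872 that passed were 65.8%, against 81.6% of all peaks and 74.6% of the exon peaks with more exons. A fold of at least 2 was reached by 1258 of them, and by 86.9% of all peaks and 86.3% of the exon peaks with more exons. No test of these differences was run, because peaks are not replicates and share transcripts, and the intervals cover counting error over peaks only.

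The single-exon peaks were mostly in 1 piece. They covered a median of 361 exon bases, against 405 for all peaks and 329 for the exon peaks with the same names left out, and 1256 (94.8%) had 1 block, against 60.3% of all peaks. The other 69 were joined from several blocks, up to 29. In 26 of these 69 no block touched the listed transcript of the assigned gene, which need not be the single-exon one. These rows were 12 small RNA names, 12 pseudogenes, 1 long noncoding RNA and 1 name without a RefSeq match. Their median span was 18997 bases, against a median length of 301 for the listed transcript. RNU6-1297P, named as a pseudogene of the U6 spliceosomal RNA, had the lowest p of them (log10 p -345, fold 7.90). Its 4 blocks held 2306 bases, none in its 104-base gene, and lay over ASH1L, which encodes a histone methyltransferase. Likewise, no base of the hairpins of MIR550A2, MIR550A3, MIR4678 or MIR610 was in the peaks that carry their names, and the MIR610 peak lay over the kinesin gene KIF18A.

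Many single-exon peaks had the same pair of fold and p as another row. The pair was repeated in 959 of them (72.4%, interval 69.9 to 74.7), against 43.8% of all peaks and 52.7% of the exon peaks with the same names left out. The most frequent pair, a fold of 6.54 with a log10 p of -1.31, occurred in 118 single-exon peaks (8.91%) and in 3.55% of all peaks, and the median fold is this value. The next were 7.63 (70 peaks), 8.71 (52 peaks) and 9.80 (44 peaks), in steps of 1.08 to 1.10. The list gives no read counts, and how many reads lie behind these pairs was not tested. Without the repeated pairs, 366 single-exon peaks remained, with a median fold of 5.57 against 4.53 for such peaks of the whole list and 3.92 for such exon peaks with more exons. Of them 83.1% had an FDR under 0.001, against 88.4% and 82.7%, the latter with no names left out. Of the 959 with a repeated pair, 201 passed that threshold, so leaving repeated pairs out raises such shares by itself. These shares therefore do not say whether the single-exon peaks differ from the others.

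**Figure D1:**
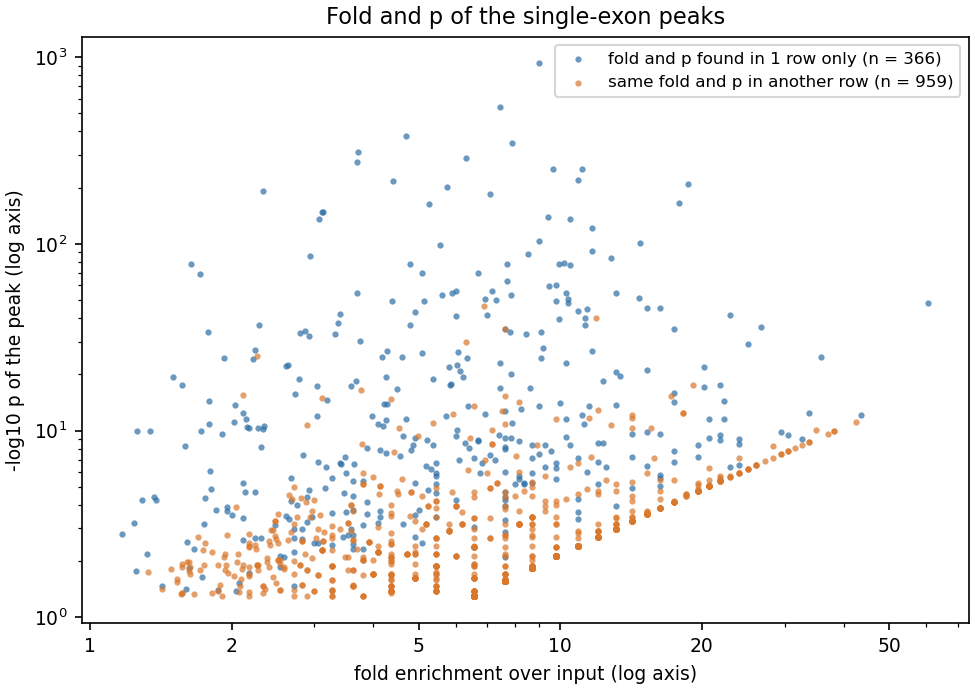
Fold enrichment over input (x axis, log scale) against -log10 p (y axis, log scale) for the 1325 single-exon peaks, each point a peak. Orange points (n = 959) have a pair of fold and p found in another row and line up in columns and along the lower edge, and blue points (n = 366) have a pair of their own.

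Protein-coding names made up 650 of the 1325 peaks (49.1%), pseudogenes 444 (33.5%), long noncoding RNAs 83, clustered protocadherins 43, small RNA names 30 and mitochondrial genes 16. The other 59 had no RefSeq match. The median fold was 6.54 for protein-coding names, 7.63 for pseudogenes and for long noncoding RNAs, and 8.17 for the protocadherins. Mitochondrial peaks had the lowest median, 3.42, and all 16 of them had an FDR under 0.001. Of the protein-coding peaks 229 passed that threshold, of the pseudogene peaks 171, of the long noncoding RNA peaks 36 and of the protocadherin peaks 19. All these shares except that of the mitochondrial peaks were under the 62.0% of the whole list.

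**Figure D2:**
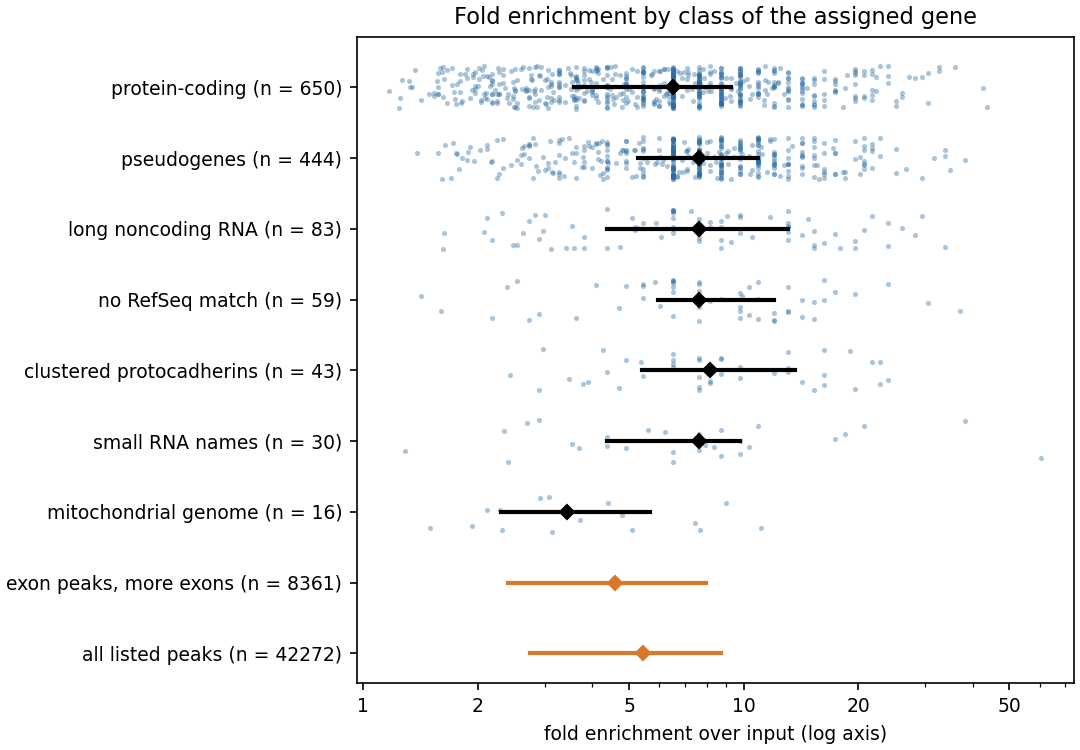
Fold enrichment over input (x axis, log scale) of the single-exon peaks by class of the assigned gene, each blue point a peak, with the median (diamond) and quartiles (line) in black, and in orange the median and quartiles of 8361 exon peaks in transcripts with more exons (same names left out) and of all 42272 peaks. Medians run from 3.42 (mitochondrial) to 8.17 (clustered protocadherins).

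The long noncoding RNAs gave the peak with the lowest p. NORAD, an unspliced RNA that responds to DNA damage and binds PUMILIO proteins, had a peak of 1433 bases in its 5401-base transcript (chr20:36049586-36051018) with a fold of 9.02 and a log10 p of -926. PRECSIT, which is known in carcinoma cells for its link to STAT3, had 3 peaks next to each other, with folds of 9.77, 10.5 and 17.9. GHET1, first described in gastric carcinoma, had 3 peaks, with folds of 5.17, 24.0 and 33.8. In each of these 3 transcripts at least 1 peak had a log10 p of -12.5 or lower. Divergent transcripts, which start opposite a neighbouring gene and carry the suffix -DT, gave 25 peaks under 16 names with a median fold of 7.63. Of these 13 (52.0%) had an FDR under 0.001, against 62.0% of all listed peaks. In the exon peaks of transcripts with more exons, with the same names left out, the share was 52.2%. CRIM1-DT (fold 5.27, log10 p -163) and WASL-DT (fold 14.8, log10 p -101) had the lowest p among those named here. EIF2AK3-DT reached a fold of 29.4, in a peak whose pair of fold and p was found in 22 rows.

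XIST carried 6 of the peaks, and in 5 of them the single-exon transcript was that of TSIX, its antisense gene. Of the 6, 2 had an FDR under 0.001, against 62.0% of all listed peaks. All 6 had a repeated pair of fold and p, against 43.8%. The list gives no strand for the peaks, so reads from either gene cannot be told apart.

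In 569 single-exon peaks (42.9%, interval 40.3 to 45.6) the transcript belonged to another gene than the assigned one, against 18.0% of 11282 exon peaks whose transcript had more exons. Their median fold was 6.54, and it was 7.21 in the 756 peaks whose transcript belonged to the assigned gene. RefSeq has another gene under the blocks of 386 of the 569, a pseudogene in 189, a long noncoding RNA in 135 and a protein-coding gene in 84. Most protein-coding names were of this kind, with 473 of the 650 peaks.

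The lowest p among these rows were those of MT-ATP6, PCDHGA2 and MT-ND4. In the next ones RefSeq has a shorter gene or an antisense gene under the peak. PSMD14, a deubiquitinase subunit of the proteasome, had a peak of 398 bases (chr2:161340816-161341213, fold 6.30, log10 p -289) where RefSeq has the pseudogene MXRA7P1. THSD4, an extracellular matrix gene, had a peak of 294 bases (fold 3.69, log10 p -276) over HMGB1P6, a copy of the chromatin protein gene HMGB1. GABPB1, which encodes a subunit of the transcription factor GABP, had a peak with a fold of 9.66 (log10 p -251) over GABPB1-IT1 and GABPB1-AS1. Of the 10 names with the highest fold at an FDR under 0.001, 5 had the peak in a transcript of another gene. These were MIR1184-1, CD302 (fold 43.6), ZSWIM5 (42.5, where RefSeq has LINC01144), RNU6-481P (38.1) and CKAP4 (35.9), while KRT18P4, Z69720 (37.0), PGAM1P7, GHET1 and RPL22P2 had it in a transcript of their own. For such rows the assigned name does not give the RNA that carried the peak.

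KCNQ1, a potassium channel gene, had 15 single-exon peaks, all in transcripts of 1 other gene and all over KCNQ1OT1, the unspliced antisense RNA of that imprinted locus. They were spread over 83568 bases of chromosome 11 and covered 13484 of them, and these 15 were all the peaks listed under the name. Folds ran from 3.63 to 17.4 with a median of 7.63. Of the 15, 1 (6.67%) had an FDR under 0.001, against 62.0% of all listed peaks, and 14 (93.3%) had a repeated pair of fold and p, against 43.8%.

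The protocadherin clusters on chromosome 5 encode cell adhesion proteins. In the alpha and gamma clusters a large variable exon is joined to shared constant exons, and the beta cluster genes have a single exon each. Across the clusters 43 peaks under 11 names were single-exon, of 198 listed for 42 names. PCDHGA2 had the most single-exon peaks of any name, 17, with folds from 2.90 to 24.0. Of these 15 lay in transcripts of other genes, and the 17 together fell in transcripts of 11 genes, so the name stands for the gamma cluster rather than for 1 gene. The peak with the lowest p (chr5:141477267-141478647, fold 4.70, log10 p -379) lay in a PCDHGC3 transcript. Peaks in PCDHGB7 transcripts had folds of 22.9 and 16.3, and PCDHGA1 had a peak of 2184 bases with a fold of 19.1. The pseudogene PCDHB18P had 9 peaks, many of which overlapped, with folds from 4.90 to 16.3. The next names by number of peaks were the pseudogenes HTR7P1 and ZNF658B and the RNA XIST, with 6 each, and their folds reached 17.4 in HTR7P1 and 8.62 in ZNF658B.

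Among protein-coding genes whose own transcript was single-exon, 177 peaks under 127 names had a median fold of 5.45, and 65 (36.7%) had an FDR under 0.001, against 62.0% of all listed peaks. The lowest p named here was that of SPG7, which encodes the mitochondrial protease paraplegin, with folds of 18.7, 9.20 and 7.69 in 3 peaks. SPG7 is a spliced gene, and these rows name a single-exon transcript of it. PGBD4, a gene derived from a piggyBac transposon, had a peak of 1524 bases with a fold of 10.2. PKDREJ, an intronless gene of the polycystin family, had 5 peaks along its 7681 bases, with folds of 4.90, 10.3, 10.5, 12.0 and 19.6. The receptor gene P2RY4 had folds of 7.63 and 24.0.

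Well-known intronless genes were mostly outside the single-exon rows, because their peaks were labelled as UTR. Of 47 intronless transcription factor genes, 34 had 70 peaks, of which 43 were labelled 5′-UTR and 21 3′-UTR. Only 5 peaks of 4 genes read exon 1 of 1. These were ZXDB, a zinc finger gene on chromosome X (folds 15.3 and 3.27), its copy ZXDA (9.80), the neural factor ATOH1 (4.36) and FOXS1 (9.80). Of these 5 peaks 2 had an FDR under 0.001, against 62.0% of all listed peaks, and the FOXS1 pair of fold and p was found in 586 rows. None of the 28 peaks of 14 Frizzled, claudin and GPCR genes, and none of the 8 peaks of 3 intronless potassium channel genes, was a single-exon row. HSPA1A, the stress-induced chaperone, had a single-exon peak with a fold of 30.5 (log10 p -9.52), and NANOS1, an RNA-binding regulator of germ cells, 1 with a fold of 2.76.

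Replication-dependent histone genes, whose mRNAs lack poly(A) tails, had 57 peaks under 36 names. Whether the poly(A) selection used affected these counts was not tested. Of the 57 peaks, 27 were labelled 5′-UTR and 25 3′-UTR, and 2 were single-exon rows. These were H1-3 (fold 7.63) and H2BC17 (fold 3.54), and neither had an FDR under 0.001. Olfactory and interferon genes gave 16 single-exon peaks under 13 names with a median fold of 6.54, of which 7 (43.8%) had an FDR under 0.001, against 62.0% of all listed peaks. Pseudogenes of the OR7E group were among them, with folds of 29.4 for OR7E102P, 20.2 and 6.04 for OR7E101P and 4.21 for OR7E7P. The OR7E102P peak had a pair of fold and p found in 22 rows.

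Of the 350 pseudogene names, 278 carry the symbol of a protein-coding gene, here called the parent, followed by P and a number. For 209 of these (75.2%, interval 69.8 to 79.9) the parent also had a listed peak, against 61.1% of 20056 protein-coding symbols. In the peak with the lowest p of each, the median fold was 7.63 in the pseudogenes and 4.02 in the parents. The pseudogene had the higher fold in 154 pairs and the parent in 55. The log10 p was nearer 0 in the pseudogenes, with a median of -3.18 against -95.9. In the 79 pairs in which both peaks had an FDR under 0.001 the pseudogene was higher in 59, with medians of 8.71 and 3.97. Only peaks with a p of at most 0.05 are listed, and the pseudogene peaks had p-values nearer that limit. The folds of the pairs were therefore not selected alike, also at an FDR under 0.001. They do not show which copy is more enriched. Parents can count under several pseudogenes, and reads of near-identical copies can be assigned to either, so the copy of origin is uncertain.

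RPSA, a ribosomal protein gene, had the most pseudogenes with single-exon peaks (6), none of them with a listed parent peak, followed by HMGB1 (5), and by ACTG1, KRT8 and PTMA (4 each). TOMM40P2 and TOMM40P1, copies of the mitochondrial import pore gene TOMM40, had folds of 10.5 and 10.4 against 2.19 in TOMM40. Against 3.03 in HMGB1, the folds were 13.4 in HMGB1P10, 16.3 in HMGB1P20, 7.63 in HMGB1P1 and HMGB1P19, and only 1.76 in HMGB1P5. RPL13AP5 and its ribosomal protein parent RPL13A were close to each other, at 2.33 and 2.55. The order was turned for DUSP5P1, a copy of a MAP kinase phosphatase gene, with 9.42 against 12.1 in DUSP5, and for MORF4L1P1, with 1.64 against 52.9 in the chromatin gene MORF4L1. The highest folds were those of KRT18P4, from a keratin gene (38.1, against 6.64 in KRT18), PGAM1P7 (34.9), and DND1P1 and RPL22P2 (33.8 each). All of these had repeated pairs of fold and p, found in 14 rows for KRT18P4, 3 for PGAM1P7 and 12 for DND1P1 and RPL22P2.

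Another protein-coding gene lay under 106 of the 408 pseudogene peaks whose transcript was the pseudogene's own. TPI1P2, a copy of the glycolytic enzyme gene TPI1, had 2 overlapping peaks with folds of 26.7 and 20.2 within TNPO3. SH3GL1P3, which had the lowest p of the pseudogenes (fold 10.9, log10 p -221), had 7 blocks over LINC00674, and its transcript was that of another gene.

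**Figure D3:**
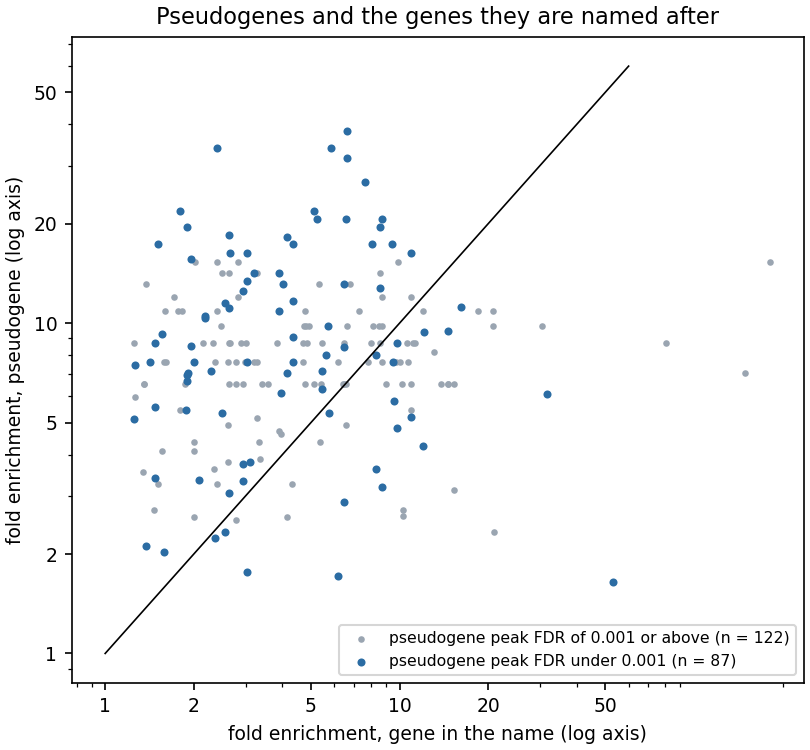
Fold enrichment of 209 pseudogenes (y axis, log scale) against that of the gene they are named after (x axis, log scale), each point a pair of the peaks with the lowest p, blue where the pseudogene peak had an FDR under 0.001 (n = 87) and grey otherwise (n = 122). The line marks equal folds, and 154 points lie above it and 55 below it. Only peaks with a p of at most 0.05 are listed, so the folds of a pair were not selected alike.

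All 16 peaks of the mitochondrial genome were single-exon rows, under 11 names, 10 of which encode subunits of the respiratory chain and the ATP synthase. MT-ND2, a complex I subunit, had the highest fold, 11.1, over its whole 1042 bases (log10 p -253). Among the other complex I genes, folds were 9.01, 2.31 and 4.39 in the 3 MT-ND5 peaks, 7.70 in MT-ND6, 5.09 in MT-ND1 and 4.80 in MT-ND3. The rows assigned to MT-ND4 had folds of 3.72 and 2.29. The lowest folds were 1.50 in MT-CO1, a subunit of complex IV, and 1.93 in MT-RNR2, the large ribosomal RNA. In 6 of the 16 rows the peak had the same ends as its gene.

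The lowest mitochondrial p, with a log10 of -541, was that of a peak at 8366 to 8572 assigned to MT-ATP6 (fold 7.44), only 46 of whose 207 bases are in that gene, and its transcript was that of another. The other MT-ATP6 peak, over the whole gene, had a fold of 3.07. Both MT-ND4 rows also had a transcript of another gene, and the one with a fold of 2.29 had only 7 of its 297 bases in MT-ND4. Nuclear copies of mitochondrial genes were also listed, with folds of 5.99 and 3.27 for MTND2P28 and 4.90 for MTATP6P1 on chromosome 1, and which copy the reads came from is uncertain.

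**Figure D4:**
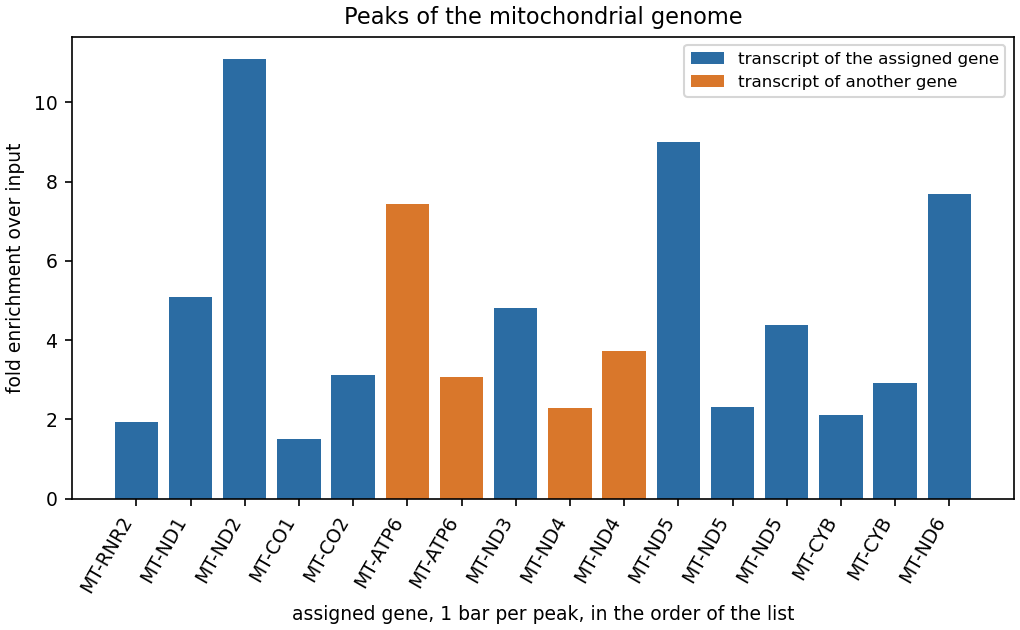
Fold enrichment over input (y axis, from 0) of the 16 peaks of the mitochondrial genome, 1 bar per peak with the assigned gene on the x axis. Blue bars are peaks in a transcript of the assigned gene and orange bars in a transcript of another gene, and the bars run from 1.50 (MT-CO1) to 11.1 (MT-ND2).

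Outside the mitochondrial genome, where every peak was single-exon, the share of listed peaks that were single-exon rows was highest on chromosome 22 (64 of 1159, 5.52%) and X (65 of 1342, 4.84%) and lowest on chromosome 3 (48 of 2325, 2.06%) among the chromosomes counted. Chromosome Y was left out of this ranking.

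Position along the transcript was given by 608 peaks whose listed transcript was the single-exon one. The transcripts had a median length of 1059 bases. In 568 rows the peak lay inside the transcript, and in 253 of these it covered over 50% of it, among them 149 with the same ends as the transcript, which leaves no position to read. The other 315 peaks were counted by the part of the transcript that held their centre, with the length cut into 5 equal parts. The part at the 5′ end held 92 (29.2%, interval 24.5 to 34.5), the second 64, the middle 44 (14.0%, interval 10.6 to 18.2), the fourth 62 and the 3′ end 53 (16.8%, interval 13.1 to 21.4). The 5′ end was the fullest over all 315. Of the 114 with an FDR under 0.001, the counts from 5′ to 3′ were 29, 26, 19, 24 and 16. Pseudogenes gave 170 of the 315 peaks, 59 of them at the 5′ end (34.7%). In the other 145 peaks the counts from 5′ to 3′ were 33, 39, 20, 31 and 22, so the second part was the fullest there. Protein-coding names, with 59 peaks, ran 9, 23, 8, 12 and 7, and the protocadherins 1, 6, 5, 4 and 1. The 5′ end was the fullest in names without a RefSeq match (12 of 31 peaks) and in long noncoding RNAs (9 of 31). Peaks labelled 5′-UTR or 3′-UTR were outside the single-exon rows by the selection rule. The counts of protein-coding names and protocadherins therefore lack such peaks at the transcript ends. For this reason the classes cannot be compared for position.

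**Figure D5:**
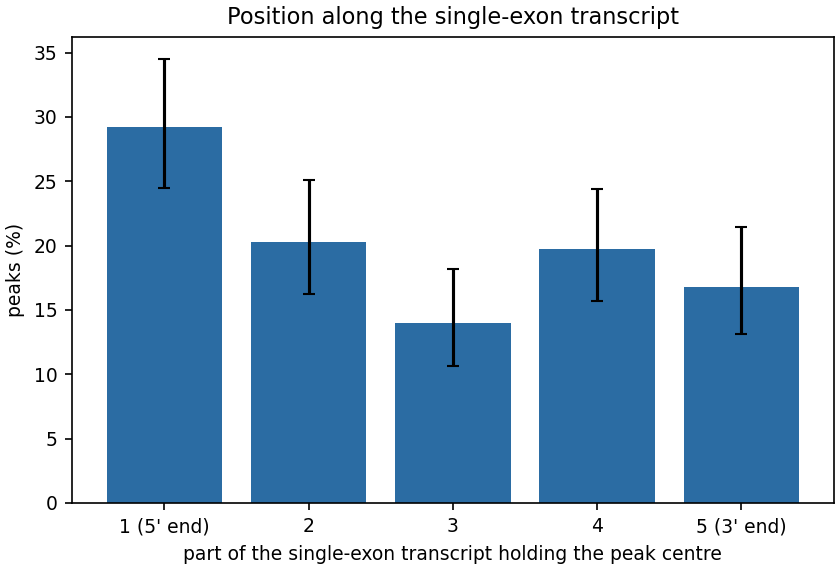
Share of 315 single-exon peaks (y axis, percent, from 0) whose centre lay in each of 5 equal parts of the transcript from 5′ to 3′ (x axis), with 95% Wilson intervals as error bars. The 5′ end held 29.2% and the middle 14.0%, and without the pseudogenes the 5′ end held 33 of 145 peaks. Peaks labelled as UTR are left out by the selection rule.

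Overlapping rows were counted separately. Bases were shared with another row of the list in 212 single-exon peaks (16.0%, interval 14.1 to 18.1), with another single-exon peak in 173, with a 5′-UTR row in 18 and with a 3′-UTR row in 7. Merging the overlapping ones gave 1236 peaks. As to the cell type, all 6 glioma and astroglial marker genes looked up had a listed peak, and 1 of 6 markers of other cell types did (PECAM1), none of them in a single-exon row. A peak list gives no expression level.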

How the data were processed

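The authors performed MeRIP-seq on poly(A) RNA of siRNA-transfected U251 cells. Of tools, fastp and HISAT2 are listed in the submitters' processing notes, with no version. Neither peak caller nor annotation release is given in the sources used here. The genome build is not named either, and the list's miRNA genes were therefore compared with RefSeq hairpins of GRCh38.p14, where 59 of 59 had the same start and end. The deposited list has 42272 rows and 24 columns. The fold enrichment is a linear ratio deposited by the authors. The log10 of each p-value and of each FDR was deposited on a log10 scale, and no p-value exceeds 0.05. Exon blocks, positions, annotation and gene names are the authors' other deposited columns. No column holds a library, so depth is unknown and no test between samples was run.

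Rows were selected by their annotation text and gene names, and gene classes, overlapping genes, miRNAs and starts were taken from RefSeq tables, which matched 1248 of the 1325 peaks, 23 of them by a synonym. Shares have 95% Wilson intervals and medians order-statistic intervals. The procedures were tested on simulated data. A pair of fold and p counted as repeated when at least 2 rows held it. The genes and lists were chosen with earlier results of these data known. Those named are the 10 with the lowest p, the 10 with the highest fold at an FDR under 0.001, the 5 names with the most peaks, the 5 other-gene rows with the lowest p, and up to 4 by p and 4 by fold per list. The divergent transcripts, PRECSIT, SPG7, PGBD4, PKDREJ, P2RY4, TPI1P2, KDM7A-DT, the miRNA hairpins, the nuclear copies of mitochondrial genes and the pseudogene pairs were chosen after their values were seen. Alternatives tried were other FDR and fold thresholds, the names kept in, the assigned gene's transcript only, 1 peak per gene, 1 block, merged rows and a stricter overlap. Python 3.11.15, pandas 2.3.3, NumPy 2.4.6, SciPy 1.17.1 and matplotlib 3.10.9 were used.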

Additional observations from a re-analysis of the deposited data

How the results depend on the processing

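The count of 1325 single-exon peaks became 872 at an FDR under 0.05, 505 at an FDR under 0.001, 2390 with LINC, clone and antisense names kept in, and 756 with the assigned gene's own transcripts only. The median fold of 6.54 became 7.63, 7.84, 7.63 and 7.21 under these settings in the same order, and 7.45 with 1 peak per gene name. In the 366 peaks whose fold and p pair was not repeated, an alternative chosen after seeing the data, it was 5.57, and the share with an FDR under 0.001 was 83.1% in place of 38.1%. That share was 41.7% with 1 peak per gene name and 40.9% with the names kept in. The median length of 361 exon bases became 414 at an FDR under 0.05 and 504 at an FDR under 0.001, and the share in another gene's transcript fell from 42.9% to 29.2% with the names kept in. The cause was not tested. The other 8 of 24 alternative values moved by less than their interval or than 1.5 times, among them the share of peaks sharing bases with another row (16%, and 14.4% at an overlap of 50% of the shorter peak). No paired analysis was possible because no column belongs to a library, which also means that leaving out replicates could not be tried. The DRACH motif within peaks was not run, since it needs genome sequence that was not used here. How far depth limits the peaks cannot be said without read counts.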
